A study of Mus musculus with 15 samples.

Results

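The mouse miR-30 family was read here as its 5 mature 5p arms, miR-30a-5p, miR-30b-5p, miR-30c-5p, miR-30d-5p and miR-30e-5p. A read belonged to an arm when its insert was 18 to 26 bases long and its first 18 bases matched the arm exactly. At most 2 later bases could differ from the annotated sequence. The 5 arms were 5 of 876 miRNA arms that had at least 1 read, and all 5 had reads in all 15 libraries. The 15 libraries of the study, small RNA from mouse mammary cells and from particles they secrete, formed 5 groups of 3, and the study searched them for miRNAs that act on the progesterone receptor.

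TUBO exosomes were extracted from the culture supernatant of TUBO cells, and TUBO supernatant was what remained of that supernatant after the isolation. TUBO cells are a line from primary mammary tumours of Balb-NeuT mice, whose transgene is the activated rat Her2 homologue Neu under a mouse mammary tumour virus promoter. MM3MG-Her2 cells are MM3MG cells transduced with pLSXN-Neu retroviral particles, and the sources used here do not say whether they are 1 clone. MM3MG cells are the parent line, labelled as normal mammary epithelium of BALB/c origin. No culture was treated, and all grew in DMEM with foetal calf serum, so the exosome and supernatant fractions could also hold bovine RNA. The mature miR-30 sequences are conserved among mammals, so bovine and mouse reads of them cannot be told apart here. The labels also do not say whether the 3 libraries of a group came from separate cultures, so p-values measure only the spread between these libraries.

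The labelled cell type was set against 7 miRNAs of epithelial identity (the miR-200 family, miR-205-5p and miR-203-3p). Together they made up 2.54% to 2.67% of miRNA reads in TUBO cells, 0.00116% to 0.00399% in MM3MG-Her2 and 0.00259% to 0.00448% in MM3MG, so these markers were near absent from both MM3MG lines. The 8 mesenchymal and stromal miRNAs held 4.72% to 4.73% in TUBO cells, 10.4% to 10.9% in MM3MG-Her2 and 18.6% to 20.1% in MM3MG. Nearly all of the TUBO cell sum was miR-143-3p, at 46946 reads per 1000000 miRNA reads, against 103952 in MM3MG. In the same unit miR-199a-3p, counted with miR-199b-3p, averaged 117 in TUBO cells and 74772 in MM3MG, and miR-214-3p 0 and 2046. All 8 averaged lower in TUBO cells than in MM3MG. Total reads per library ran between 196152 and 710902, and miRNA reads between 58940 and 537019, the lowest being in the supernatant. Values are reads per 1000000 miRNA reads of the same library (CPM). A set of 3 libraries stood apart from their own groups: exosome replicate 3, supernatant replicate 3 and MM3MG replicate 1, with a chi-square per degree of freedom of 43.5 to 102 against their group mates, where other replicate pairs had 4.82 to 17.3. Results that turn on one of them are given with and without it.

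A miRNA is processed from a hairpin precursor into a 5p and a 3p arm, and the seed near the 5′ end of the loaded arm pairs with target mRNAs and lowers their output. The miR-30 5p arms share a seed and therefore much of their predicted target set, while the 3p arms have other seeds. In mammary cells the family is known for restraining self-renewal and mesenchymal features, with Itgb3 among its targets, and miR-30a-5p is also known for repressing the autophagy gene Becn1.

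The sequences below show what tells the members apart. They are RefSeq mature arms on GRCm38.p6, with the seed, bases 2 to 8, in capitals. miR-30a-5p lies at chr1:23272274-23272295 on the plus strand and miR-30e-5p at chr4:120772660-120772681 on the minus strand. miR-30c-5p is made from a pair of hairpins, at chr1:23291714-23291736 on the plus strand and chr4:120769584-120769606 on the minus strand. miR-384-5p, on chromosome X, is shown because it carries the same seed outside the family.
miR-30a-5p: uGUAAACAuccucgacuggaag
miR-30e-5p: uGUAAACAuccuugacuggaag
miR-30c-5p: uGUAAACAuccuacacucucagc
miR-384-5p: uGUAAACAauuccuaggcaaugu

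Counting from 1 at the 5′ end, the matched 18 bases of miR-30a-5p and miR-30e-5p differ by C13U, and those of miR-30a-5p and miR-30d-5p by U12C. A misread base could thus move a read of the abundant miR-30a-5p into either neighbour. Reads with either of the other bases at position 12 averaged at most 0.53% of the miR-30d-5p reads in any library, and at position 13 at most 1.15% of the miR-30e-5p reads. miR-30b-5p and miR-30c-5p share all 18 matched bases and were separated by base 19, and 3.32 to 122.5 CPM per library could not be placed and were kept apart. miR-384-5p and miR-30f, the other mature miRNAs with this seed, had 0 reads in every group, which allows at most 14.2 CPM in the supernatant and 2.09 to 4.51 CPM in the other groups.

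The 6 hairpins lie in 3 pairs on GRCm38. Mir30a (chr1:23272269-23272339, plus strand) overlaps no other annotated gene and lies 19361 bases from Mir30c-2 (chr1:23291701-23291784, plus strand), which is in an exon of the long noncoding RNA gene Gm27028. Mir30c-1 (chr4:120769534-120769622) and Mir30e (chr4:120772606-120772697) lie 2983 bases apart in an intron of Nfyc, on the minus strand. Mir30b (chr15:68337415-68337510) and Mir30d (chr15:68341208-68341289) lie 3697 bases apart on the minus strand, with Mir30d inside an exon of the long noncoding RNA gene Gm20732.

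The family took very different shares of the miRNA pool in the 5 groups. It held 13.2%, 13.6% and 9.92% of miRNA reads in the 3 exosome libraries and 6.63%, 6.73% and 4.72% in the supernatant. It held 17.4%, 18.1% and 17.0% in TUBO cells, 5.39%, 4.84% and 4.69% in MM3MG-Her2 and 2.77%, 2.98% and 3.27% in MM3MG. The groups did not overlap in any of the 6 comparisons made here, while supernatant and MM3MG-Her2, which were not compared, did. The mean share in TUBO cells (17.5% ± 0.541, SD, n = 3) was 5.83 times that in MM3MG (3.00% ± 0.250) and 3.52 times that in MM3MG-Her2 (4.97% ± 0.371). It was 1.66 times as high in MM3MG-Her2 as in MM3MG, 2.03 times as high in exosomes (12.2% ± 2.01) as in supernatant (6.03% ± 1.13), and 0.698 times the TUBO cell share in exosomes. Each comparison reached the smallest p that 3 against 3 libraries can give, 0.1 (exact two-sided permutation test, 0.1 after adjustment over 6 comparisons), so none can pass 0.05. miRNA reads were 49.8% to 54.6% of all reads in MM3MG-Her2 and 72.1% to 78.8% in MM3MG. Over all reads the family share differed by only 0.28 percentage points between these lines, with overlapping libraries (exact permutation p = 0.2). In supernatant miRNA reads were 28.11% to 33.15% of all reads. The family held 1.33% to 2.20% of all reads there, against 2.41% to 2.69% in MM3MG-Her2 and 2.00% to 2.57% in MM3MG.

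miR-30a-5p carried most of these differences. It had 107875, 110559 and 68405 CPM in exosomes and 42776, 43638 and 21778 CPM in supernatant. TUBO cells had 140055, 146471 and 136956 CPM, MM3MG-Her2 34025, 30777 and 29212 CPM, and MM3MG 13487, 12834 and 13366 CPM. It was the most abundant of all miRNA arms in TUBO cells and exosomes, rank 6 in MM3MG-Her2 and supernatant and rank 17 in MM3MG. In order of mean CPM the groups ran TUBO cells, exosomes, supernatant, MM3MG-Her2 and MM3MG. Only the neighbours supernatant and MM3MG-Her2 overlapped in their library values. CPM leaves aside the lower share of miRNA reads in the supernatant libraries.

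miR-30d-5p, whose known targets include Galnt7 in human melanoma, was the member with the flattest profile. It had 13986, 14471 and 20683 CPM in exosomes and 20872, 21089 and 23910 CPM in supernatant. TUBO cells had 19004, 18908 and 18273 CPM, MM3MG-Her2 7885, 7320 and 6909 CPM, and MM3MG 8335, 11070 and 12706 CPM. Its mean level was highest in the supernatant (21957 ± 1695 CPM), followed by TUBO cells (18729 ± 397 CPM) and exosomes (16380 ± 3735 CPM), of which TUBO cells and exosomes overlapped. MM3MG (10704 ± 2208 CPM) and MM3MG-Her2 (7371 ± 490 CPM) were lowest and did not overlap.

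miR-30e-5p was highest in MM3MG-Her2. It had 5837, 6543 and 4522 CPM in exosomes and 1720, 1442 and 858 CPM in supernatant. TUBO cells had 8631, 8941 and 8722 CPM, MM3MG-Her2 10517, 9034 and 9420 CPM, and MM3MG 4354, 4417 and 5092 CPM. Exosomes and MM3MG overlapped in library values, and no other neighbours in this order did.

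miR-30c-5p, known for repressing the cytoskeletal gene TWF1 in human breast cancer cells, had 3376, 3551 and 4959 CPM in exosomes and 648, 984 and 559 CPM in supernatant. TUBO cells had 5101, 5466 and 5156 CPM, MM3MG-Her2 1084, 909 and 867 CPM, and MM3MG 475, 692 and 770 CPM. The supernatant values rested on only 49, 58 and 43 reads and overlapped those of both MM3MG lines. miR-30b-5p was the scarcest member in every group but MM3MG, where miR-30c-5p was. It had 644, 647 and 556 CPM in exosomes and 172, 84.8 and 52.0 CPM in supernatant, the last from 13, 5 and 4 reads. TUBO cells had 1073, 1062 and 1132 CPM, MM3MG-Her2 399, 320 and 445 CPM, and MM3MG 1057, 728 and 736 CPM. TUBO cells lay just above MM3MG replicate 1, and exosomes lay below all MM3MG libraries.

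**Figure D1:**
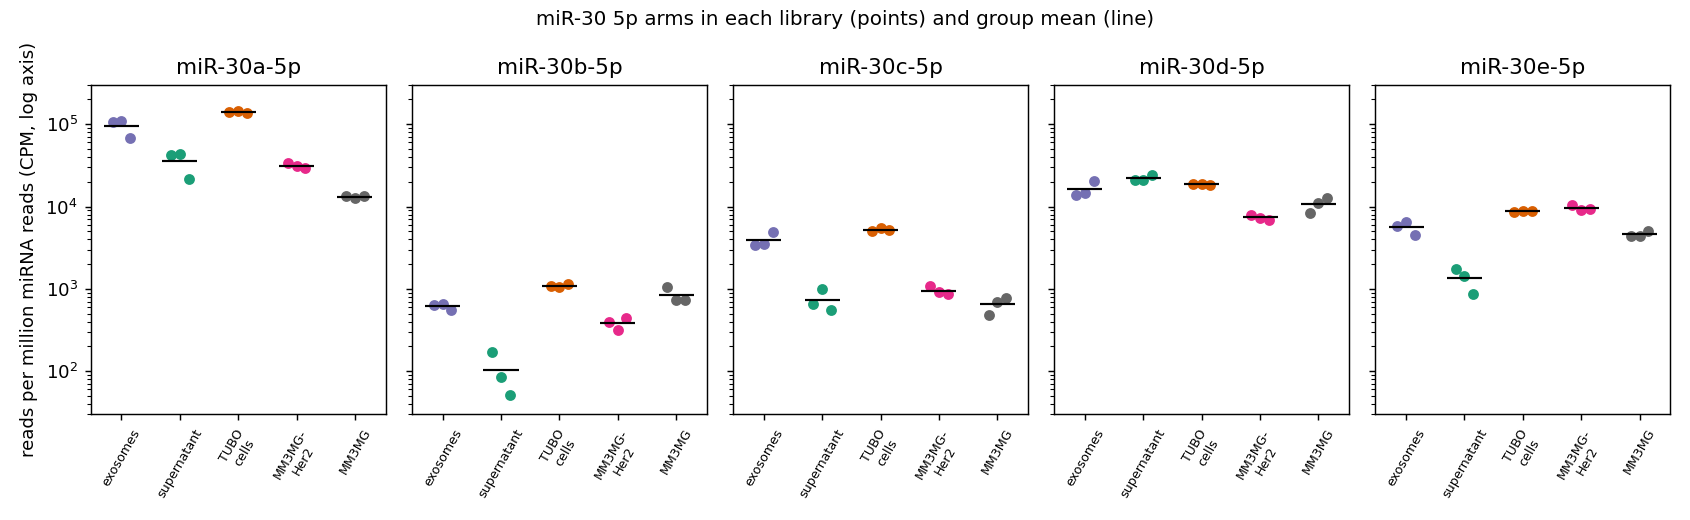
Level of each miR-30 5p arm in CPM on a log axis in every library of TUBO exosomes, TUBO supernatant, TUBO cells, MM3MG-Her2 and MM3MG. Points are libraries and lines are group means. miR-30a-5p lies between 136956 and 146471 CPM in TUBO cells and between 12834 and 13487 CPM in MM3MG, while miR-30d-5p spans 6909 to 23910 CPM over all 15 libraries.

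The transduction of MM3MG with Neu was read from MM3MG-Her2 against MM3MG. Here miR-30a-5p, miR-30e-5p and miR-30c-5p rose while miR-30b-5p and miR-30d-5p fell. All 5 arms passed the test (edgeR quasi-likelihood, adjusted p under 0.05 over 283 arms), where 62.5% of all arms did, 30.7% higher and 31.8% lower, so the number called is little above the background. miR-30a-5p rose by 1.25 ± 0.10 (log2 fold change ± SE, 3 libraries a group, edgeR adjusted p = 9.4e-12) and miR-30e-5p by 1.07 ± 0.11 (edgeR adjusted p = 3.3e-09). miR-30c-5p rose by 0.56 ± 0.15 (edgeR adjusted p = 0.0022), and this call was lost with no filter on low counts (0.30) and with all 15 libraries in 1 fit (0.21), and without MM3MG replicate 1 the value was 0.37 and still passed. miR-30b-5p fell by 1.12 ± 0.18 (edgeR adjusted p = 3.6e-06) and miR-30d-5p by 0.53 ± 0.12 (edgeR adjusted p = 0.00047). The median of all arms was 0.

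TUBO cells were set against MM3MG as a tumour line against a line labelled normal. All 5 arms rose, miR-30b-5p with a sign that turned with all 15 libraries in 1 fit, where 83.0% of all arms passed, 44.2% as higher and 38.9% as lower. With so many arms passing, the sizes of the rises say more than their number. miR-30a-5p rose by 3.67 ± 0.11 (log2, edgeR adjusted p = 4.2e-22) and miR-30c-5p by 3.27 ± 0.16 (edgeR adjusted p = 4.0e-17). miR-30e-5p rose by 1.18 ± 0.11 (edgeR adjusted p = 2.0e-10), miR-30d-5p by 1.06 ± 0.12 (edgeR adjusted p = 8.5e-09) and miR-30b-5p by 0.63 ± 0.16 (edgeR adjusted p = 0.00070). The median of all arms here was 0.17, and other scalings put it between -0.46 and -0.07. The split of all calls, 125 higher and 110 lower, was 89 and 140 with upper-quartile scaling. The rises of miR-30a-5p and miR-30c-5p passed under every alternative run and were smallest with all 15 libraries in 1 fit, at 2.73 and 2.33. miR-30b-5p did not pass under relative-log-expression scaling (0.22), upper-quartile scaling (0.00), DESeq2 (0.22) or with only the 2 groups in the fit (0.08), and was -0.31 with all 15 libraries in 1 fit, where the median of all arms was -0.64. miR-30d-5p (0.12) and miR-30e-5p (0.23) also did not pass in that fit. Without MM3MG replicate 1 the rises of miR-30c-5p (2.59), miR-30d-5p (0.41), miR-30e-5p (0.63) and miR-30b-5p (0.32) were smaller and still passed.

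Against MM3MG-Her2, which carries Neu too, 4 of the 5 arms rose in TUBO cells, where 74.2% of arms passed, 33.9% as higher and 40.3% as lower. miR-30c-5p rose by 2.71 ± 0.15 (log2, edgeR adjusted p = 3.1e-15) and miR-30a-5p by 2.42 ± 0.10 (edgeR adjusted p = 2.6e-18). miR-30b-5p rose by 1.75 ± 0.17 (edgeR adjusted p = 6.2e-10) and miR-30d-5p by 1.59 ± 0.13 (edgeR adjusted p = 5.2e-12). Without MM3MG-Her2 replicate 2, miR-30c-5p stood at 2.10, miR-30b-5p at 1.05 and miR-30d-5p at 1.02, and without replicate 3 miR-30c-5p stood at 2.12 and miR-30d-5p at 1.03, all still passing. miR-30e-5p had a difference of 0.11 ± 0.11 (edgeR adjusted p = 0.386), and its sign depended on the scaling: -0.09 with relative-log-expression scaling, -0.43 with upper-quartile scaling (edgeR adjusted p = 6.4e-04) and -0.14 with no scaling factor. It also turned when single libraries were left out: without MM3MG-Her2 replicate 1, 2 or 3 it was -0.33, -0.51 or -0.43 and passed as lower. Its CPM was lower in every TUBO cell library than in every MM3MG-Her2 library. The comparisons among the cell lines share their libraries, so their values are set side by side and not counted as separate evidence.

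What TUBO cells release was read from exosomes and supernatant against the cells and against each other. In these bulk samples, fewer cells or particles of a kind and less RNA in each cannot be told apart. None of the 5 arms passed in exosomes against TUBO cells (edgeR), where 37.3% of arms passed, 24.2% as higher and 13.1% as lower. At an unadjusted p under 0.05 there was 1, miR-30b-5p, at -0.57 ± 0.24 (edgeR adjusted p = 0.0648), and DESeq2 called 3 (miR-30a-5p, miR-30b-5p and miR-30e-5p). The other differences were -0.31 ± 0.24 for miR-30a-5p, -0.39 ± 0.23 for miR-30e-5p, -0.16 ± 0.21 for miR-30c-5p and 0.05 ± 0.20 for miR-30d-5p, the last with a sign that turned under relative-log-expression scaling (-0.19). These misses do not show equal levels: the CPM of miR-30a-5p, miR-30b-5p, miR-30c-5p and miR-30e-5p was lower in every exosome library than in every cell library, which 63.9% of arms also showed in either direction. Exosome replicate 3 had 68405 CPM of miR-30a-5p, against 107875 and 110559 CPM in its group mates, and without it the difference from cells was -0.18.

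Exosomes held more of 4 members than the supernatant did, and less of miR-30d-5p. All 5 arms passed, where 64.3% of arms did, 36.9% as higher in exosomes and 27.5% as lower, so passing was common among arms of any kind. miR-30b-5p was higher by 2.48 ± 0.34 (log2, edgeR adjusted p = 1.3e-06), miR-30c-5p by 2.38 ± 0.24 (edgeR adjusted p = 1.0e-08), miR-30e-5p by 2.00 ± 0.24 (edgeR adjusted p = 1.7e-07) and miR-30a-5p by 1.35 ± 0.24 (edgeR adjusted p = 4.2e-05). The median of all arms was 0.45. Without supernatant replicate 3 the values for these 4 were 2.07, 2.16, 1.69 and 1.02, and without exosome replicate 3 they were 2.56, 2.21, 2.15 and 1.55, all still passing. Without supernatant replicate 1, which held 13 of the 22 supernatant reads of miR-30b-5p, that arm stood at 3.29. miR-30d-5p was lower in exosomes, at -0.51 ± 0.21 (edgeR adjusted p = 0.032), a call lost without exosome replicate 1 (-0.29) or 2 (-0.40), without supernatant replicate 1 (-0.40) or 2 (-0.44), with no filter on low counts (-0.17), with no scaling factor (-0.42) and with relative-log-expression scaling or DESeq2 (-0.52 each).

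The supernatant against TUBO cells gave the mirror of that order. All 5 arms passed, where 72.1% of arms did, 36.9% as lower and 35.2% as higher. miR-30b-5p fell by 3.05 ± 0.34 (log2, edgeR adjusted p = 3.8e-08), miR-30c-5p by 2.54 ± 0.24 (edgeR adjusted p = 4.3e-09), miR-30e-5p by 2.39 ± 0.25 (edgeR adjusted p = 1.3e-08) and miR-30a-5p by 1.66 ± 0.24 (edgeR adjusted p = 2.9e-06), beside a median of all arms of -0.15. Without supernatant replicate 1 miR-30b-5p stood at -3.89. miR-30d-5p was higher by 0.57 ± 0.21 (edgeR adjusted p = 0.017), a call lost under 12 of 17 alternatives, among them no scaling factor (0.23) and leaving out any one TUBO cell library. The comparisons among the 3 TUBO fractions share libraries as well. The sum of 6 blood cell and serum miRNAs moved with the fractions. In replicate order it was 1.01%, 1.12% and 2.44% of miRNA reads in exosomes and 0.325%, 0.307% and 0.709% in supernatant. TUBO cells had 0.0123% to 0.0156%. Replicate 3 was thus highest in both fractions. Most of the sum was miR-486a-5p (counted with miR-3107-5p), at 14091 CPM in exosomes and 4380 in supernatant. miR-451a-5p, which red blood cells carry, had 991 CPM in exosomes, 2 reads in supernatant and 0 in TUBO cells. In supernatant miR-144-3p and miR-223-3p had 0 reads and miR-150-5p 1, while miR-122-5p averaged 76.0 CPM, against 32.7 in exosomes. The part of these 6 miRNAs in the miR-30 values was not tested.

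Shares within the family do not depend on how a library is scaled, and most did not overlap between the groups compared. miR-30a-5p made up 77.4% ± 7.31 of the family's reads in exosomes, 58.5% ± 10.7 in supernatant, 80.6% ± 0.283 in TUBO cells, 63.0% ± 0.655 in MM3MG-Her2 and 44.2% ± 4.0 in MM3MG. miR-30d-5p made up 14.0% ± 5.90, 37.8% ± 11.1, 10.7% ± 0.239, 14.8% ± 0.266 and 35.4% ± 4.67 in the same order of groups. Supernatant and MM3MG thus had the highest mean shares of miR-30d-5p and the lowest of miR-30a-5p.

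miR-30e-5p separated the TUBO-derived groups from both MM3MG lines. It held 4.60% ± 0.197 of the family's reads in exosomes, 2.19% ± 0.390 in supernatant and 5.01% ± 0.0986 in TUBO cells, against 19.4% ± 0.714 in MM3MG-Her2 and 15.4% ± 0.466 in MM3MG. For 1 read of miR-30e-5p there were 15.7 to 16.4 reads of miR-30a-5p in TUBO cells, 3.10 to 3.41 in MM3MG-Her2 and 2.63 to 3.10 in MM3MG. Of the 30 shares compared, 25 did not overlap between groups. These were 4 of 5 in MM3MG-Her2 against MM3MG, 5 in TUBO cells against MM3MG, 4 in TUBO cells against MM3MG-Her2, 2 in exosomes against TUBO cells, 5 in exosomes against supernatant and 5 in supernatant against TUBO cells. The shares of a library are parts of a whole, so a change in one moves the others and the 30 are not independent. For all tested arms only CPM, a different measure, was available. It did not overlap for 66.1%, 82.7%, 79.9%, 63.9%, 67.2% and 73.8% of arms in the same order. The smallest adjusted p over the 30 exact permutation tests was 0.12, since 3 against 3 libraries cannot go below 0.1. Exosome replicates 1 and 2 had 10.6% and 10.7% miR-30d-5p, the TUBO cell range being 10.4% to 10.9%, and replicate 3 had 20.9%. Supernatant replicate 3, with 50.7%, lay above replicates 1 and 2 with 31.5% and 31.3% in the same way.

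**Figure D2:**
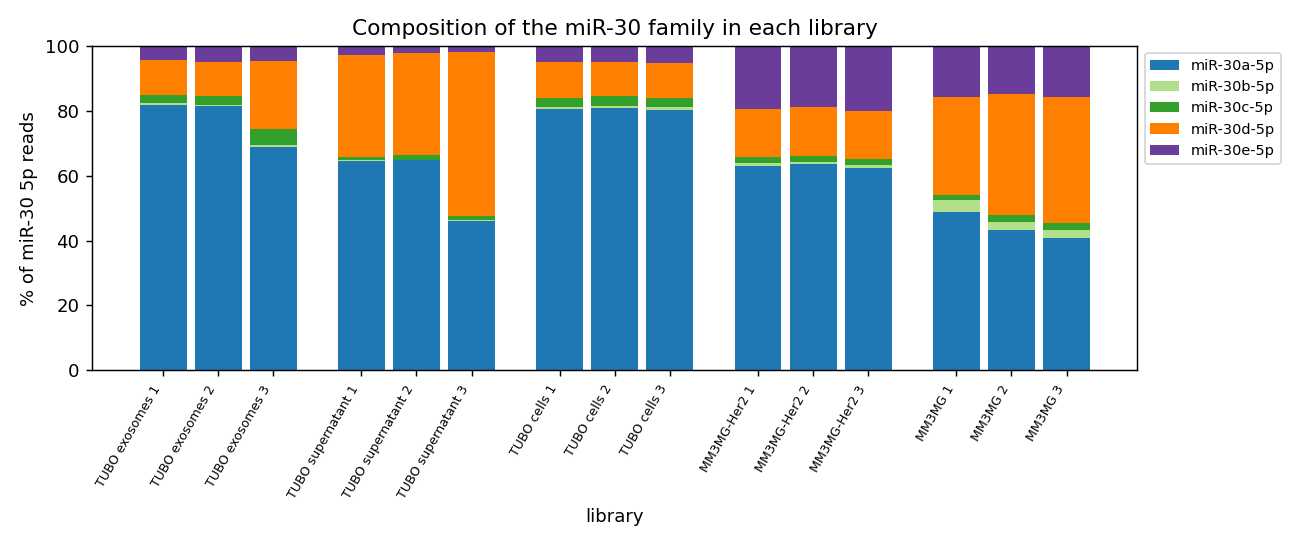
Share of the miR-30 family's reads (percent) held by each 5p arm in each library, ordered as TUBO exosomes, TUBO supernatant, TUBO cells, MM3MG-Her2 and MM3MG. Stacked bars are single libraries. miR-30a-5p falls to 46.1% in supernatant replicate 3 and 40.9% in MM3MG replicate 3, the libraries where miR-30d-5p is largest, and miR-30e-5p is 4.43% to 5.12% in exosomes and TUBO cells.

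The 3p arms give a separate reading of the same hairpins. They are shown because their seeds, again in capitals, differ from that of the 5p arms and because they tell Mir30c-1 from Mir30c-2.
miR-30a-3p: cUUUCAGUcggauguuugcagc
miR-30e-3p: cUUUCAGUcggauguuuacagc
miR-30c-1-3p: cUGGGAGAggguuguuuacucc
miR-30c-2-3p: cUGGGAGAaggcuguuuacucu
Mir30a hairpin: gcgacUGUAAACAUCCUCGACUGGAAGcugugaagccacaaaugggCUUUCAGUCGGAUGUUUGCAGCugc
In the hairpin line, on chr1:23272269-23272339, the capitals are the 5p and the 3p arm.

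Against MM3MG the 3p arms of Mir30a, Mir30c-2 and Mir30e rose in both other lines, as their 5p partners did. Of all arms, 30.7% passed as higher in MM3MG-Her2 and 44.2% in TUBO cells. In MM3MG-Her2 against MM3MG, miR-30a-3p rose by 1.23 ± 0.15 (log2, edgeR adjusted p = 2.8e-08), miR-30c-2-3p by 1.84 ± 0.22 (edgeR adjusted p = 2.8e-08) and miR-30e-3p by 0.96 ± 0.17 (edgeR adjusted p = 2.2e-05). In TUBO cells against MM3MG they rose by 3.83 ± 0.15, 4.44 ± 0.19 and 1.33 ± 0.16 (edgeR adjusted p = 2.3e-19, 3.9e-18 and 2.6e-08). miR-30d-3p was -0.18 in MM3MG-Her2 (edgeR adjusted p = 0.713) and rose by 1.04 ± 0.29 in TUBO cells (edgeR adjusted p = 0.0019), both against MM3MG. miR-30b-3p was 0.21 and 0.90 ± 0.33 in those comparisons, of which the second passed (edgeR adjusted p = 0.014). The calls of these scarce arms did not hold everywhere: in TUBO cells against MM3MG miR-30b-3p was 0.36 without MM3MG replicate 1 and miR-30d-3p 0.42 with upper-quartile scaling, neither passing. miR-30e-3p, at 0.41, did not pass there with all 15 libraries in 1 fit.

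Reads that mark the chromosome 4 copy of miR-30c were few. miR-30c-1-3p had 65 reads in all 15 libraries and could not be tested. It made up 1.53% of the miR-30c 3p reads in exosomes (95% Wilson interval 0.805% to 2.87%) and 0 of 84 in supernatant, with an upper Wilson bound of 4.37% and an allowed share of up to 3.57% by the limit of 3 reads used for counts of 0. It made up 1.83% in TUBO cells (1.29% to 2.58%), 8.98% in MM3MG-Her2 (5.52% to 14.3%) and 12.2% in MM3MG (6.76% to 21.0%). Its reads numbered 31 in TUBO cells, 15 in MM3MG-Her2 and 10 in MM3MG, while those of miR-30c-2-3p numbered 1664, 152 and 72. The larger miR-30c 3p pool of TUBO cells was therefore made up of Mir30c-2 reads, from the hairpin beside Mir30a. These intervals, like all counts of PCR reads without molecular identifiers, cover counting error only.

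In exosomes the 3p arms of Mir30a and Mir30e parted from their 5p arms. miR-30a-3p had 8134, 8038 and 8199 CPM in exosomes and 3188, 3427 and 3211 CPM in supernatant, against 3920, 3669 and 3328 CPM in TUBO cells. It was higher in exosomes than in cells by 1.41 ± 0.19 (log2, edgeR adjusted p = 2.6e-06), a comparison in which miR-30a-5p stood at -0.31. Exosome replicate 3, low in the 5p arm, was level with its group mates in the 3p arm. miR-30e-3p had 1288, 1409 and 1217 CPM in exosomes and 630, 537 and 475 CPM in TUBO cells, higher by 1.50 ± 0.24 (edgeR adjusted p = 1.5e-05), where miR-30e-5p stood at -0.39. The exosome libraries lay above all cell libraries for both of these 3p arms. Of all arms, 63.9% did not overlap in this comparison, in either direction, and 24.2% passed as higher. miR-30c-2-3p did not share this, at -0.57 ± 0.23 (edgeR adjusted p = 0.0505), a value that passed in 11 of 17 alternatives as lower. In exosomes against cells miR-30b-3p stood at -0.82 ± 0.44 (edgeR adjusted p = 0.145) and miR-30d-3p at -0.77 ± 0.39 (edgeR adjusted p = 0.12). miR-30d-3p was lower in supernatant than in cells (edgeR adjusted p = 0.0098), the opposite of miR-30d-5p, from 0, 1 and 1 reads in supernatant and 35, 31 and 36 in cells.

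**Figure D3:**
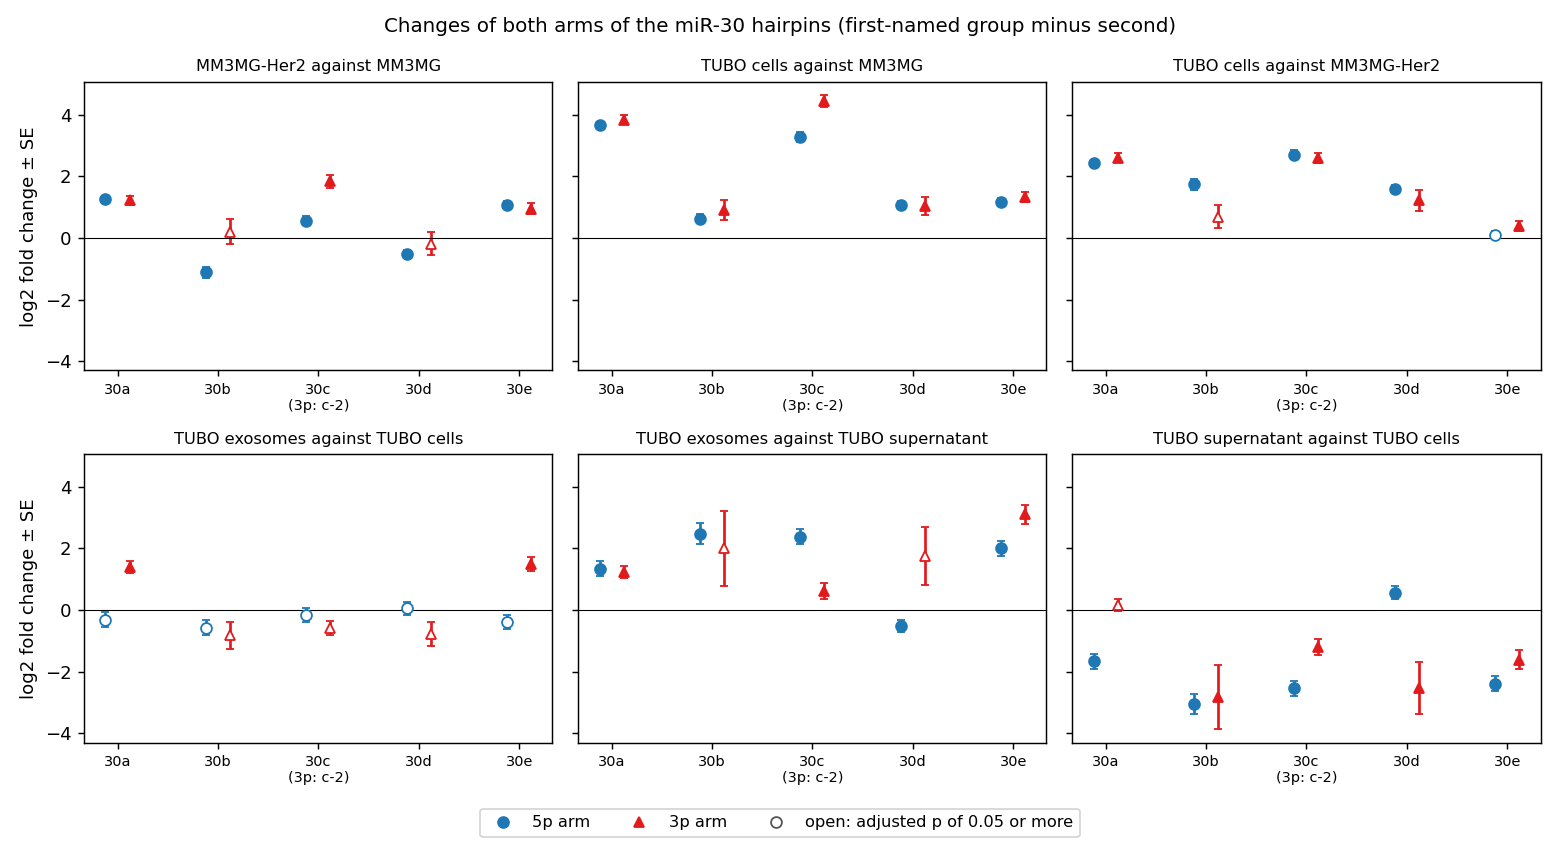
Log2 fold change ± SE (edgeR, n = 3 per group) of the 5p arms (circles) and 3p arms (triangles) of the miR-30 hairpins in the 6 comparisons, the first-named group minus the second. Open symbols did not pass at an adjusted p of 0.05. In TUBO cells against MM3MG both arms of Mir30a stand near each other at 3.67 (5p) and 3.83 (3p), and in exosomes against cells they part, at -0.31 (5p) and 1.41 (3p).

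As a share of both arms, the 3p reads of Mir30a were 7.01%, 6.78% and 10.7% in exosomes and 6.94%, 7.28% and 12.9% in supernatant, against 2.72%, 2.44% and 2.37% in TUBO cells. Means were 2.23% ± 0.328 in MM3MG-Her2 and 2.25% ± 0.112 in MM3MG. Neither released fraction overlapped the cells, and exosomes and supernatant overlapped each other. For Mir30e the 3p share was 18.1%, 17.7% and 21.2% in exosomes and 10.3%, 6.59% and 12% in supernatant, against 6.80%, 5.67% and 5.16% in TUBO cells. The supernatant libraries held only 15, 6 and 9 reads of that arm and overlapped the cells, while the exosome libraries overlapped neither. MM3MG-Her2 had 4.92% ± 0.593 and MM3MG 5.27% ± 0.904. The 3p share of Mir30d averaged 0.235% in exosomes, 0.0449% in supernatant and 0.380% in TUBO cells. That of the Mir30c pair was 14.8%, 14.8% and 13.6% in exosomes and 42.4%, 24.7% and 40.3% in supernatant, against 19%, 17% and 19% in TUBO cells. Exosomes thus lay below the cells for this pair, and supernatant above them on 84 reads of the 3p arms, without overlap. Without exosome replicate 3 the exosome minus cell difference was 4.38 percentage points for Mir30a and 12 for Mir30e, and no test was made of these shares.

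**Figure D4:**
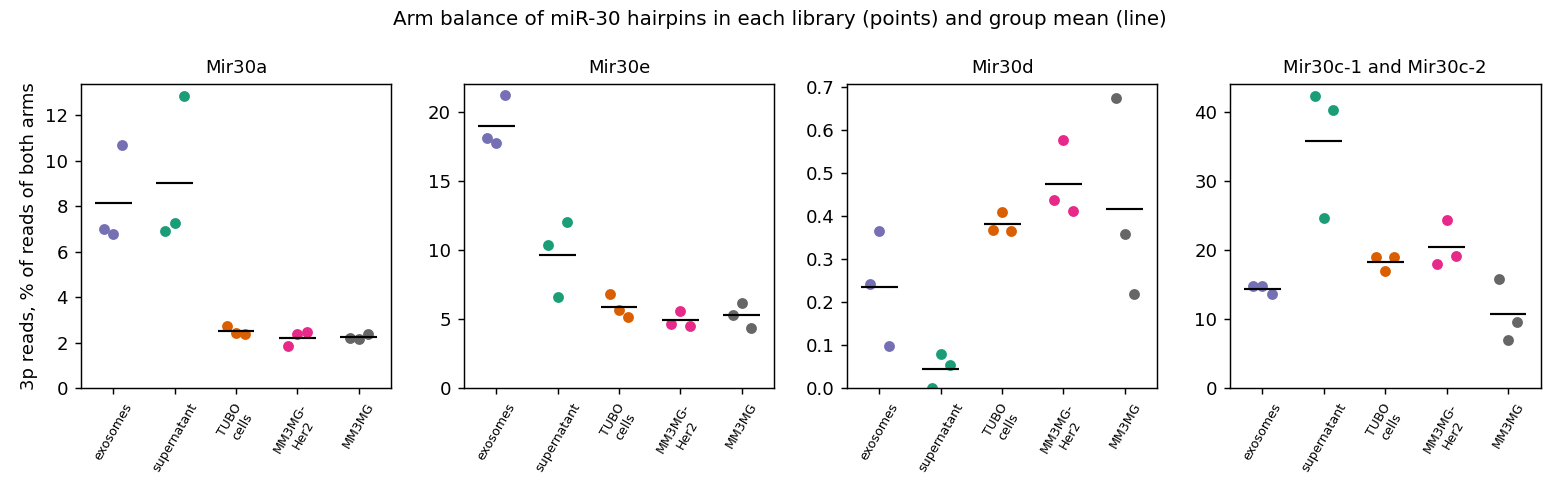
Share of 3p reads among the reads of both arms (percent) of Mir30a, Mir30e, Mir30d and the Mir30c pair in each library of TUBO exosomes, TUBO supernatant, TUBO cells, MM3MG-Her2 and MM3MG, each panel with its own axis. Points are libraries and lines are group means. Exosomes lie at 6.78% to 10.7% for Mir30a and 17.7% to 21.2% for Mir30e, and TUBO cells at 2.37% to 2.72% and 5.16% to 6.80%.

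The reads also show which form of the arm was present. For miR-30a-5p the RefSeq arm of 22 bases was a minor form. The most frequent inserts are shown with the bases past the RefSeq end in capitals, both of which are encoded in the hairpin.
24 bases: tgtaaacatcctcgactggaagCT
23 bases: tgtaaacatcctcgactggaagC
22 bases: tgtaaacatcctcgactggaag
They held 52.0%, 23.6% and 7.78% of all miR-30a-5p reads. By group the insert of 24 bases averaged 41.8% in exosomes, 45.5% in supernatant, 56.2% in TUBO cells, 62.6% in MM3MG-Her2 and 44.7% in MM3MG. A further 3.19% to 5.22% of miR-30a-5p reads per library had an uncalled base at position 23.

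Mean insert length of miR-30a-5p was 23.23 bases in exosomes, 23.17 in supernatant, 23.41 in TUBO cells, 23.57 in MM3MG-Her2 and 23.16 in MM3MG. miR-30d-5p and miR-30e-5p followed, each longest in MM3MG-Her2, at 23.74 and 23.87 bases. All other miRNA inserts together were also longest there, at 22.47 to 22.48 bases, against 22.42 to 22.45 in TUBO cells and 22.16 to 22.24 in MM3MG. In exosomes they were 22.25 to 22.36 bases long and in supernatant 21.73 to 21.91. miR-30b-5p was shorter than the other members in all groups but the supernatant, at 21.93 to 22.05 bases in the 5 group means. By group mean, untemplated 3′ bases were least frequent in supernatant for each member but miR-30b-5p. For that arm the supernatant mean was 5.13%, from libraries at 15.4%, 0% and 0% with 13, 5 and 4 reads, against 2.95% in TUBO cells. In supernatant untemplated bases made up 4.31% of miR-30d-5p reads, against 8.13% in exosomes and 9.43% in TUBO cells. For miR-30e-5p the share was 3.48%, against 8.17% and 7.11%. The smallest adjusted p over 60 exact permutation tests of lengths and tails was 0.154, and none could pass.

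Supernatant miR-30c-5p was shorter than miR-30c-5p elsewhere, and all other miRNA inserts together were shorter in supernatant too: 9.56% to 13.2% of them had 20 bases or fewer, against 4.70% to 4.89% in TUBO cells. The mean length of supernatant miR-30c-5p was 21.82 bases, against 23.66 in exosomes and 23.78 in TUBO cells. Of its 150 reads, 44 were only 19 bases long (29.3%, 95% Wilson interval 22.6% to 37.1%), against 0.737% of reads in exosomes, 0.187% in TUBO cells and 0.522% in MM3MG. A read of 19 bases has a single base that separates it from miR-30b-5p, and with bases 19 and 20 both required the supernatant kept 106 reads of miR-30c-5p.

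**Figure D5:**
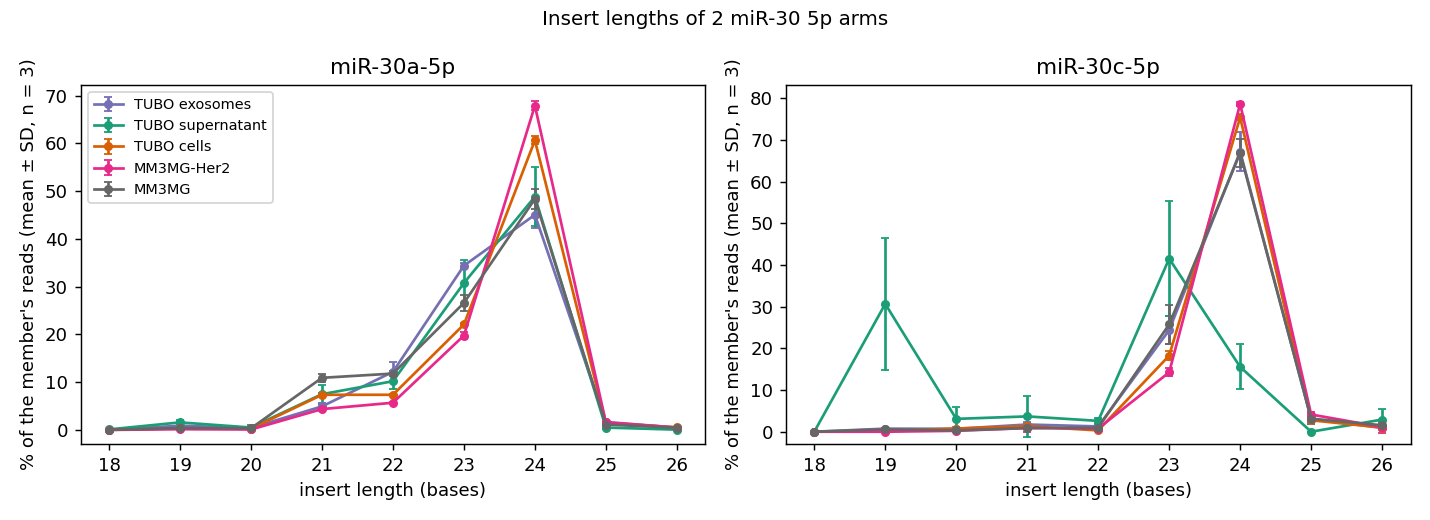
Insert lengths of miR-30a-5p and miR-30c-5p (percent of the member's reads at each length in bases, mean ± SD of 3 libraries), for TUBO exosomes, TUBO supernatant, TUBO cells, MM3MG-Her2 and MM3MG. miR-30a-5p peaks at 24 bases, with means of 45.0% in exosomes and 67.9% in MM3MG-Her2, and supernatant miR-30c-5p has a second peak at 19 bases, with a mean of 30.7%.

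Over the 15 libraries the members did not form a single pattern. As a description, with libraries of 1 group sharing their source, Pearson's r of log2(CPM + 1) was 0.91 between miR-30a-5p and miR-30c-5p and 0.80 between miR-30b-5p and miR-30e-5p. It was -0.29 between miR-30b-5p and miR-30d-5p, whose hairpins are neighbours, and -0.56 between miR-30d-5p and miR-30e-5p. Per read of miR-30d-5p there were 0.00218 to 0.00824 reads of miR-30b-5p in supernatant, where that arm had 13, 5 and 4 reads. The ratio was 0.0437 to 0.127 in the cell libraries and 0.0269 to 0.0461 in exosomes. Without the supernatant no r was computed. Among 234 other arms with at least 100 CPM in a group, those most like miR-30a-5p were miR-181b-5p (r = 0.92), miR-141-5p (0.90), miR-135b-5p (0.90), miR-181c-5p (0.86) and miR-141-3p (0.85). For the summed family they were miR-181b-5p (0.92), miR-141-5p (0.92), miR-135b-5p (0.91), miR-181c-5p (0.89) and miR-9-5p (0.88). miR-181b-5p averaged 13047 CPM in exosomes, 4428 in supernatant, 15439 in TUBO cells, 5650 in MM3MG-Her2 and 4379 in MM3MG.

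Since the study looked for miRNAs that act on the progesterone receptor, the family was set beside 8 candidates for that role. They were of the miR-9, miR-26, miR-181 and miR-129 families. Whether miR-30 acts on the receptor was not tested. In MM3MG-Her2 against MM3MG, 1 of the 8 rose and 4 fell (edgeR; 30.7% and 31.8% of all arms), with a median of -0.72 beside 0 for all arms. In TUBO cells against MM3MG 5 rose and 2 fell (44.2% and 38.9% of all arms), with a median of 1.21 beside 0.17. Against MM3MG-Her2 6 rose and 2 fell (33.9% and 40.3% of all arms), with a median of 1.61 beside -0.12. Of the 7 tested among TUBO fractions, 2 passed as higher in exosomes than in cells (24.2% of all arms), 6 as higher in exosomes than in supernatant (36.9%), and all 7 as lower in supernatant than in cells (36.9%). miR-9-5p averaged 55430 CPM in exosomes, 4646 in supernatant, 55559 in TUBO cells, 98.6 in MM3MG-Her2 and 311 in MM3MG. Lower in TUBO cells than in MM3MG were miR-26a-5p, at 7183 and 22317 CPM, and miR-129-5p, at 0.67 and 47.7 CPM.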

How the data were processed

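TRIzol RNA received a 3′ and a 5′ adapter by ligation, and the cDNA was amplified by PCR and size-selected on a gel, per the labels' protocols. No molecular identifiers are named. The authors deposited counts: each library lists its inserts and how many reads had each, 6892924 reads of 627951 sequences in 15 libraries. The trimming tool, like the genome build, was not given in the sources used here. Inserts of 18 to 26 bases were matched to 1174 named miRNA hairpins (GENCODE M21, GRCm38). All arms needed a match of the first 18 bases and allowed at most 2 differences after them. For the miR-30 5p arms the 18 bases had to match exactly, while other arms could hold uncalled bases there. Base 19 separated miR-30b-5p from miR-30c-5p. miR-30 inserts that met no member's rule stayed in the total, 4369723 miRNA reads, and 33 features joined arms that share at least 50% of their reads.

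edgeR 4.0.16 in R 4.3.3 (TMM, low-count filter, robust quasi-likelihood F-test) was fitted on the counts of all arms, once over the 9 cell libraries and once over the 9 TUBO libraries, with Benjamini-Hochberg adjustment over all arms tested. A standard error is the absolute log2 change over the square root of F. The fit was also run on simulated data with balanced changes and the same dispersion for all arms. Such data cannot show how the values depend on the scaling. Shares, lengths and tails were compared by exact two-sided permutation tests in Python 3.11.15 (NumPy 2.4.6, SciPy 1.17.1), and untemplated tails were up to 3 bases. Alternatives were other scalings, DESeq2 1.42.0, no filter, a match of 20 bases, miR-30b and miR-30c summed or told apart by 2 bases, other sets of libraries, all reads as the total, a replicate block and leaving out each library. Named were all 5 members, 3p arms with at least 10 reads, miRNAs of the same seed and the 5 arms most alike. The members and lists were chosen with earlier results of these data known.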

Additional observations from a re-analysis of the deposited data

Results flagged for a closer look

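Change from MM3MG differed between TUBO cells and MM3MG-Her2 for 4 members, by the direct edgeR comparison of TUBO cells with MM3MG-Her2. In that comparison 74.2% of all arms passed, 33.9% as higher and 40.3% as lower. The difference of the log2 changes was 2.42 for miR-30a-5p, 2.71 for miR-30c-5p, 1.75 for miR-30b-5p and 1.59 for miR-30d-5p. For the last pair the directions were opposite: miR-30b-5p stood at 0.63 in TUBO cells and -1.12 in MM3MG-Her2, and miR-30d-5p at 1.06 and -0.53. In TUBO cells against MM3MG, miR-30b-5p did not pass with relative-log-expression scaling (0.22), upper-quartile scaling (0.00), DESeq2 (0.22) or the 2 groups alone (0.08), and with all 15 libraries in 1 fit it was -0.31 and miR-30d-5p 0.12.

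Change from TUBO cells differed between exosomes and supernatant for all 5 members as reported, 4 of them under every alternative. This was read from the direct edgeR comparison of exosomes with supernatant. There 64.3% of all arms passed, 36.9% as higher in exosomes and 27.5% as lower. The difference was 1.35 for miR-30a-5p, 2.48 for miR-30b-5p, 2.38 for miR-30c-5p, 2.00 for miR-30e-5p and -0.51 for miR-30d-5p, the only negative one. The call of miR-30d-5p was lost with no filter (-0.17), no scaling factor (-0.42), relative-log-expression scaling or DESeq2 (-0.52 each), and without exosome replicate 1 or 2 or supernatant replicate 1 or 2 (-0.29 to -0.44).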

How the results depend on the processing

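Of 30 results for the 5p arms (5 arms in 6 comparisons), 19 kept their direction and their side of the threshold under every alternative run, and 15 of 30 did so for the 3p arms. The number of 5p arms passing in exosomes against TUBO cells was 2 under relative-log-expression scaling, under no scaling factor and with a match of 20 bases, 1 with no filter, with miR-30b and miR-30c summed and with only the 2 groups in the fit, and 3 with DESeq2 and with all 15 libraries in 1 fit. It was 0 as reported, where 37.3% of all arms passed, and 0 to 2 when single libraries were left out. The split of calls over all arms under relative-log-expression scaling is given below. With miR-30b and miR-30c summed, 3 of 4 passed in MM3MG-Her2 against MM3MG and in supernatant against TUBO cells. In the fits as reported, 62.5% and 72.1% of all arms passed in these comparisons. With all 15 libraries in 1 fit, 2 passed in TUBO cells against MM3MG, where 83.0% of all arms passed in the fit as reported. Over all reads of a library, the family share differed by 0.28 percentage points in MM3MG-Her2 against MM3MG (exact permutation p = 0.2, groups overlapping), by 11 in TUBO cells against MM3MG and by 10.7 against MM3MG-Her2. The number of family shares without overlap in exosomes against TUBO cells was 2 to 4 with single libraries left out, and 4 without exosome replicate 3.

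Directions turned in the following cases, where the value as reported was in most cases not past the threshold. In TUBO cells against MM3MG-Her2, miR-30e-5p was -0.090 (relative-log-expression scaling and DESeq2), -0.43 (upper quartile), -0.14 (no factor) and -0.47 (all 15 libraries), and -0.51 to 0.14 with single libraries left out, passing as lower without any one MM3MG-Her2 library. miR-30e-3p there, 0.38 as reported, was -0.16 (upper quartile) and -0.21 (all 15), and -0.21 to 0.50 with single libraries left out. In TUBO cells against MM3MG with all 15 libraries, miR-30b-5p was -0.31 and miR-30b-3p -0.027. In MM3MG-Her2 against MM3MG, miR-30b-3p was -0.044 (no filter) and -0.14 (all 15), and miR-30d-3p was -0.38 to 0.029 with single libraries left out. In exosomes against TUBO cells, miR-30d-5p was -0.19 (relative-log-expression scaling, no factor and DESeq2), -0.12 (no filter), -0.16 (20 bases), -0.15 (summed) and -0.24 (all 15), and -0.24 to 0.089 with single libraries left out. In supernatant against TUBO cells, miR-30a-3p was -0.072 (relative-log-expression scaling), -0.074 (DESeq2), -0.15 (no factor) and -0.35 (no filter), and -0.12 to 0.18 with single libraries left out. The cause was not tested in any of these.

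Between TUBO cells and MM3MG the median of all arms was 0.17 as reported, -0.46 to -0.07 under other scalings and -0.64 with all 15 libraries. In exosomes against TUBO cells the split of calls was 59 higher and 32 lower as reported and 47 and 58 under relative-log-expression scaling. Depth limits the supernatant, where miR-30b-5p rests on 13, 5 and 4 reads. The deviations of same-numbered libraries correlated at -0.14 to 0.13, and in no comparison was every pair over 0.1, so the numbers were not taken to pair the libraries. In exosomes against supernatant the values were 0.066, 0.046 and 0.13, and replicate 3 of both had the lowest miR-30a-5p level of its group; whether these come from the same cultures was not tested. With the replicate block the 5p arms passing were 5, 5, 4, 0, 5 and 5, as without it, and 1 call was lost, miR-30c-2-3p in exosomes against supernatant (0.64, adjusted p = 0.062). Leaving out libraries in the arm shares was added after seeing the data: the Mir30a and Mir30e shares in exosomes stayed above TUBO cells in each case.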
